A study of Mus musculus with 10 samples.

Results

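Calcium entry, store release and calcium pump genes were described in renin cells of the mouse kidney. Their 10 genes were taken by symbol from the processed gene table, which lists 32648 genes: the channel pores Cacna1c, Cacna1d and Cacna1h, the store-operated entry genes Orai1 and Stim1, the release channels Itpr1 and Ryr2, and the pumps Atp2a2, Atp2b1 and Atp2b4. All 10 were among the 18825 genes that passed the filter on low counts. Renin cells came from C57BL/6 mice carrying the Ren1c-YFP reporter, aged 8 to 12 weeks, 72 hours after surgery. Coarctation, a constriction of the aorta placed between the origins of both renal arteries, was made in 3 mice, and 2 sham mice had the operation with the aorta neither exposed nor constricted. Left and right kidneys of each mouse were sequenced separately, which gave 10 libraries in 4 groups, each from 1000 live YFP-positive cells of the cortex. All groups carry the reporter, so the cells are those in which it was visible at sorting. The labels do not give the sex of the mice or the pressure reached in each kidney.

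Calcium is unusual in renin cells: in most secretory cells a rise of cytosolic calcium releases hormone, whereas in renin cells it inhibits renin release and renin gene expression. Calcium enters through voltage-gated channels of the plasma membrane and through Orai channels, which Stim sensors open when the endoplasmic reticulum runs empty. It leaves the store through inositol trisphosphate receptors and ryanodine receptors, is pumped back by Serca pumps such as that of Atp2a2, and is expelled from the cell by the plasma membrane pumps of Atp2b1 and Atp2b4.

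The 3 pumps share a catalytic site, shown here because Atp2b1 and Atp2b4 are the genes of the 10 whose TPM did not overlap between operations on either side. In left kidneys 4.87% of tested genes lay above sham like Atp2b1 and 17.2% below like Atp2b4, and in right kidneys 5.41% and 11%. Atp2b4 did overlap on both sides when counts were taken without length scaling. The stretches shown are coding exon sequence of GENCODE M21 (GRCm38), 5′ to 3′ on the gene's strand. Their capitals mark the codons of the conserved site that begins with the aspartate that takes the phosphate from ATP. The stretches lie at chr5:122469371-122469400 on the minus strand for Atp2a2, chr10:98999811-98999840 on the plus strand for Atp2b1 and chr1:133731804-133731833 on the minus strand for Atp2b4.
Atp2a2-201: tgctcaGATAAGACAGGCACActtaccaca
Atp2b1-201: tgttcaGATAAAACAGGAACCctgacgatg
Atp2b4-207: tgctccGATAAGACAGGCACActgaccatg
Atp2a2 and Atp2b4 shared 26 of 30 bases and all 15 bases in capitals. Atp2b1 shared 24 of 30 bases with Atp2b4 and 22 of 30 with Atp2a2, with 12 of 15 bases in capitals in both cases. Only this window was compared, not the whole genes.

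Libraries held 20029817 to 32006229 estimated counts. Ren1, which encodes renin, lay between 29290 and 48620 TPM (a level scaled by transcript length and library size) in left kidneys with coarctation. It lay between 5451 and 11980 TPM in right kidneys with coarctation and between 21780 and 48590 TPM in sham kidneys. Markers of 8 other cell types were found at lower summed levels than the renin cell list in every library, and the only marker at 0 throughout a group was the neutrophil gene S100a9, in right kidneys with coarctation. The right kidney of coarctation mouse 1 stood apart: it had the highest summed collecting duct markers, 758.5 TPM against 17.0 to 225.8 TPM in the other 9 libraries, and the highest leukocyte markers, 943.7 TPM. The right kidney of coarctation mouse 3 had erythroid markers at 15980 TPM, against 152.5 to 4735 TPM elsewhere, and the left kidney of that mouse had proximal tubule markers at 10120 TPM, against at most 5234 TPM elsewhere. The part of these cells in the results was not tested. In such bulk libraries, fewer cells of a type and less RNA per cell cannot be told apart.

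No calcium gene of the 10 passed an adjusted p of 0.05 in any of the 5 comparisons made, which were right against left after coarctation, right against left after sham, the difference between those changes, and coarctation against sham in left and in right kidneys. That background was empty as well: 0% of the 18825 genes passed in each comparison (edgeR quasi-likelihood test, Benjamini-Hochberg). DESeq2 and limma-voom also called 0 of the 10, while DESeq2 called 28 to 76 of all genes by comparison and limma-voom 0. With mouse as a block, 5 genes passed for right against left after coarctation, none of them among the 10. At an unadjusted edgeR p under 0.05 the background was 4.63% of genes for right against left after coarctation, 1.94% for the same in sham, and 3.05% for the difference between them, with 0 of the 10 genes in all 3. For coarctation against sham the background was 4.75% in left kidneys, where Cacna1d, Atp2a2, Atp2b1 and Atp2b4 were among them, and 3.82% in right kidneys, where only Atp2b4 was. The directions below therefore describe these libraries.

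Levels per transcript length spanned a wide range. Over the 10 libraries Atp2a2 had the highest mean, 26.0 TPM, followed by Itpr1 with 23.9, Atp2b1 with 21.2 and Atp2b4 with 16.2 TPM. These neighbours were not separated: Atp2a2 was above Itpr1 in 6 of 10 libraries, Itpr1 above Atp2b1 in 5 of 10, and Atp2b1 above Atp2b4 in 7 of 10. Orai1 at 7.20 TPM and Stim1 at 5.54 TPM came next, with Orai1 above Stim1 in 5 of 10 libraries. Cacna1c followed at 3.84 TPM, below Stim1 in 9 of 10 libraries. Cacna1h at 1.16 TPM was below Cacna1c in 10 of 10, Cacna1d at 0.221 TPM was below Cacna1h in 9 of 10, and Ryr2 at 0.0723 TPM was lowest in 10 of 10. Among tested genes, the mean of Atp2a2 lay at percentile 85.4 and that of Ryr2 at percentile 3.1.

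**Figure D1:**
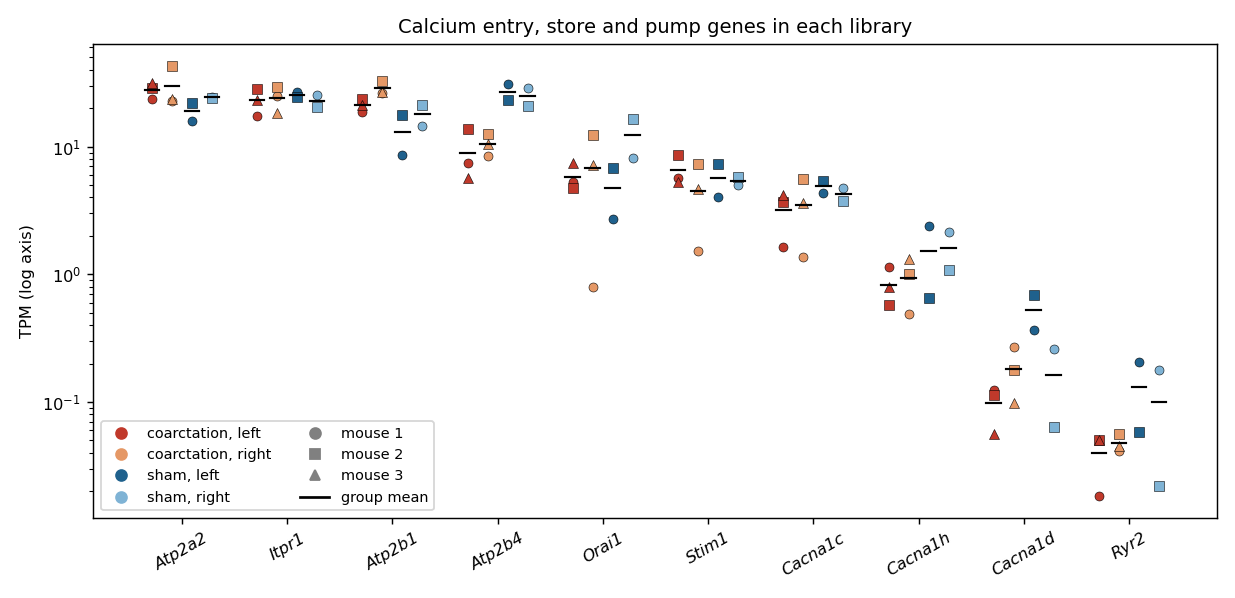
TPM of the 10 calcium genes (log axis) in each of the 10 libraries, coloured by operation and side, with a symbol for each mouse number within an operation and a bar for the group mean. Atp2a2, Itpr1, Atp2b1 and Atp2b4 lie highest, Cacna1d and Ryr2 lowest, and Atp2b4 is the gene whose coarctation libraries all lie below its sham libraries on this scale.

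Of the voltage-gated pores, Cacna1c, the pore of the L-type channel Cav1.2 and the target of dihydropyridine blockers, had the highest mean, though in the right kidney of sham mouse 2 Cacna1a, at 3.91 TPM, was above it. It measured 1.65, 3.70 and 4.19 TPM in the left kidneys of coarctation mice 1 to 3 and 1.36, 5.57 and 3.61 TPM in their right kidneys. In sham mice it measured 4.32 and 5.43 TPM on the left and 4.79 and 3.74 TPM on the right. Both kidneys of coarctation mouse 1 were lowest, and left coarctation libraries were all below left sham libraries by TPM while right libraries overlapped. By TMM-normalised CPM, the scale of the fit, the left groups overlapped as well, with 41.0 CPM in coarctation mouse 3 and 32.8 CPM in sham mouse 1. The log2 difference between coarctation and sham was -0.39 ± 0.50 (SE) on the left and -0.20 ± 0.50 on the right. Cacna1c made up 30.2% to 72.3% of the summed TPM of the 10 Cacna1 pore genes, with a median of 41.3%.

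Cacna1d, the pore of the L-type channel Cav1.3, was low in every library. After coarctation it measured 0.124, 0.113 and 0.0562 TPM on the left and 0.269, 0.177 and 0.0975 TPM on the right. In sham mice it measured 0.365 and 0.685 TPM on the left and 0.262 and 0.0637 TPM on the right. Right was above left in all coarctation mice and below left in both sham mice. Of all tested genes 6.26% had opposite directions of this kind, and Cacna1d was the only one of the 10. The difference between the operations in the right minus left change was 2.61 ± 1.31 on the log2 scale (edgeR adjusted p = 1). These levels rested on 17 to 215 estimated counts per library. The size of the difference depended on which sham mouse was in the fit: it was 4.22 ± 1.60 without sham mouse 1 and 1.38 ± 1.57 without sham mouse 2.

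Cacna1h, the pore of the T-type channel Cav3.2, which opens at low voltage, ranged from 0.486 to 2.41 TPM. The highest values were both kidneys of sham mouse 1, at 2.41 TPM on the left and 2.14 TPM on the right, while sham mouse 2 measured 0.651 and 1.08 TPM. Coarctation libraries, at 0.486 to 1.33 TPM, overlapped sham mouse 2 on both sides. The left difference between coarctation and sham was -0.55 ± 0.72 with the deposited counts and 0.40 ± 0.74 on the log2 scale when the counts were taken without length scaling.

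Orai1, the pore of the store-operated channel, varied widely, with a coefficient of variation of 63.1% over all libraries. After coarctation it measured 5.31, 4.70 and 7.40 TPM on the left and 0.801, 12.5 and 7.14 TPM on the right. In sham mice it measured 2.70 and 6.84 TPM on the left and 8.16 and 16.5 TPM on the right. Right was above left in both sham mice, whereas the coarctation mice went in both directions. The log2 change from left to right was -0.05 ± 0.77 after coarctation and 1.34 ± 0.95 in sham, and the difference between them was -1.39 ± 1.22 (edgeR adjusted p = 1). Without the right kidney of coarctation mouse 1, whose value was lowest, the coarctation change was 0.59 ± 0.64. Leaving out a library or mouse moved the sham change between 0.56, without the right kidney of sham mouse 2, and 2.28, without the left kidney of that mouse. It moved the difference between -2.79, without coarctation mouse 2 in the paired fit, and -0.61, without the right kidney of sham mouse 2. Orai3, a relative that is not among the 10, had a higher mean of 9.83 TPM and made up over 50% of Orai TPM in 7 of 10 libraries, against 2 of 10 for Orai1.

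Stim1, the store calcium sensor that opens Orai channels, was lower on the right than on the left in all coarctation mice. It measured 5.71, 8.67 and 5.28 TPM on the left and 1.53, 7.27 and 4.70 TPM on the right. In sham mice it measured 4.06 and 7.37 TPM on the left and 4.98 and 5.81 TPM on the right. The sham mice went in both directions on the TPM scale. They also did without length scaling, as counts scaled to the library total (CPM). Sham mouse 1 then had 18.9 CPM on the left and 20.2 CPM on the right, and sham mouse 2 had 30.2 and 27.1 CPM. On that scale coarctation mouse 3 was level, at 22.82 CPM on the left and 22.86 CPM on the right. Genes lower on the right by TPM in 3 of 3 coarctation mice were 8.15% of all tested, and Stim1 was the only one of the 10. The log2 change was -0.75 ± 0.47 (edgeR adjusted p = 1). Much of its size lay in mouse 1, and without the right kidney of that mouse it was -0.27 ± 0.44. Orai1 and Stim1 had their lowest values in that library, as did Cacna1c at 1.36 TPM and Cacna1h at 0.486 TPM. That library had the highest collecting duct and leukocyte markers, and the part of those cells in the result was not tested. Stim1 was over 50% of Stim TPM in 9 of 10 libraries.

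**Figure D2:**
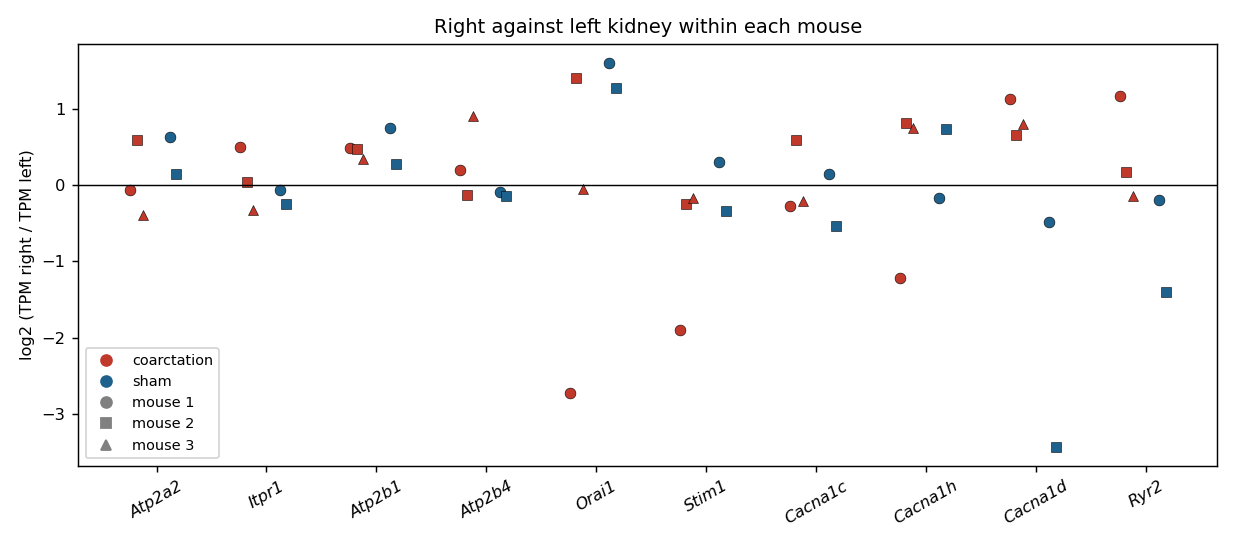
Log2 ratio of right to left TPM for each gene within each of the 5 mice, coarctation in red and sham in blue, with a symbol for each mouse number. Atp2b1 is above 0 in all 5 mice, Cacna1d is above 0 in coarctation and below 0 in sham, and Orai1 of coarctation mouse 1 lies at -2.73.

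Itpr1, the inositol trisphosphate receptor that opens the store after receptor stimulation, was the steadiest of the 10 genes, with a coefficient of variation of 16.7% over all libraries. After coarctation it measured 17.5, 28.4 and 23.2 TPM on the left and 24.8, 29.2 and 18.4 TPM on the right. In sham mice it measured 26.7 and 24.5 TPM on the left and 25.5 and 20.5 TPM on the right. The groups overlapped on both sides. The log2 difference between coarctation and sham was 0.09 ± 0.29 on the left and 0.22 ± 0.29 on the right. Itpr1 made up 69.2% to 94.3% of Itpr TPM in each library, ahead of its relatives Itpr2 and Itpr3.

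Ryr2, the ryanodine receptor that dominates in heart muscle, had the lowest level of the 10. It ranged from 0.0183 to 0.204 TPM on 10 to 100 estimated counts per library. The highest values were both kidneys of sham mouse 1, at 0.204 and 0.178 TPM, and sham mouse 2 measured 0.0583 TPM on the left and 0.0220 TPM on the right. Left coarctation libraries lay below both left sham libraries by TPM, with the highest at 0.0502 TPM, but by TMM-normalised CPM mouse 3, at 1.27 CPM, was above sham mouse 2, at 1.22 CPM. The left difference between coarctation and sham was -1.45 ± 1.02 on the log2 scale. It was -0.37 without the left kidney of sham mouse 1 and -2.03 without sham mouse 2. Its relatives Ryr1 and Ryr3 had higher means of 0.439 and 0.306 TPM.

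Atp2a2, the Serca pump that refills the store, was higher after coarctation in left kidneys. It measured 23.8, 28.7 and 31.4 TPM in left kidneys with coarctation and 15.96 and 21.9 TPM in left sham kidneys. Right kidneys measured 22.7, 43.3 and 23.8 TPM with coarctation and 24.6 and 24.2 TPM in sham, and these overlapped. The left groups did not overlap, and the log2 difference was 0.81 ± 0.33 (edgeR adjusted p = 0.912). On the right it was 0.40 ± 0.32. Atp2a2 made up 73.1% to 93.5% of Atp2a TPM.

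Atp2b1, the plasma membrane pump Pmca1, was higher after coarctation on both sides. It measured 18.7, 23.7 and 21.2 TPM in left kidneys with coarctation and 8.57 and 17.6 TPM in left sham kidneys. Right kidneys measured 26.3, 32.9 and 26.8 TPM with coarctation and 14.4 and 21.4 TPM in sham. Groups did not overlap within a side, though the right kidney of sham mouse 2 reached the left coarctation range. The log2 difference was 0.93 ± 0.37 on the left (edgeR adjusted p = 0.912) and 0.79 ± 0.37 on the right (edgeR adjusted p = 0.995). Sham mouse 1 was lowest on both sides, and without both its kidneys the differences were 0.46 ± 0.28 and 0.45 ± 0.28. Without sham mouse 2 they were 1.65 ± 0.31 and 1.27 ± 0.30. Atp2b1 was also higher on the right than on the left in 3 of 3 coarctation mice and 2 of 2 sham mice, with log2 TPM ratios from 0.28 to 0.75. Of all tested genes 20.8% had the first pattern and 26.9% the second, and the share with both was not computed.

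Atp2b4, the plasma membrane pump Pmca4, showed the widest separation by operation. It measured 7.40, 13.7 and 5.66 TPM in left kidneys with coarctation and 8.44, 12.6 and 10.6 TPM in right kidneys with coarctation. In sham mice it measured 30.7 and 23.3 TPM on the left and 28.8 and 20.99 TPM on the right. All 6 coarctation libraries were below all 4 sham libraries, a pattern found in 1.15% of tested genes and in no other gene of the 10. The log2 difference was -1.37 ± 0.36 on the left (edgeR adjusted p = 0.912) and -1.11 ± 0.36 on the right (edgeR adjusted p = 0.995), but counts without length scaling gave -0.16 ± 0.40 and, with the opposite sign, 0.36 ± 0.40. Adjusted p over the alternative fits ran from 0.138 to 1 on the left and from 0.294 to 1 on the right.

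The deposited Atp2b4 values moved with the average transcript length that the authors' table gives for the gene in each library. In coarctation libraries that length was 2284 to 4876 bases, and in sham libraries 775 to 1823 bases, with sham mouse 1 at 775 bases in both kidneys. The longest was 6.29 times the shortest, a wider ratio than in 95.1% of tested genes, whose median ratio was 1.29. TPM multiplied by that length, as a share of the library, was 30.4 to 58.2 CPM (counts scaled to the library total) with coarctation and 31.6 to 54.1 CPM in sham. On this scale the operations overlapped. Atp2b1 lengths varied little, with a ratio of 1.06, and its differences without length scaling were 0.82 ± 0.36 on the left and 0.82 ± 0.36 on the right on the log2 scale.

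**Figure D3:**
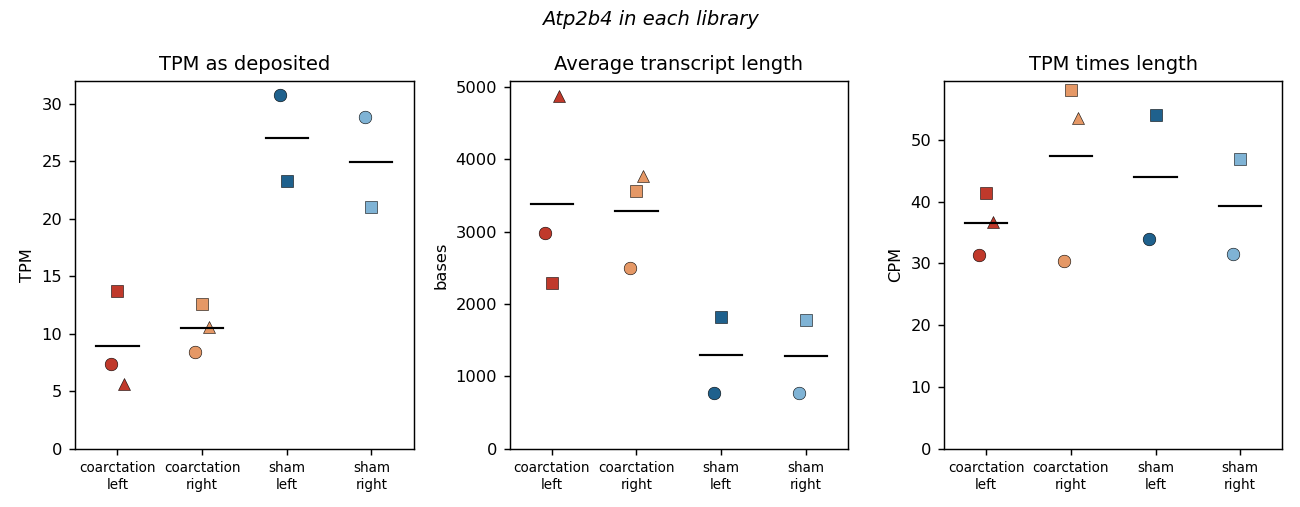
Atp2b4 in each library by operation and side: deposited TPM, average transcript length in bases, and TPM times length as CPM, with bars for group means and symbols for mouse numbers. TPM is lower and length greater in all 6 coarctation libraries than in any sham library, and the product overlaps between operations.

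GENCODE M21 lists 8 Atp2b4 transcripts of 243 to 11725 bases, and 3 of them, Atp2b4-204, Atp2b4-205 and Atp2b4-208, are shorter than 775 bases. The shortest, Atp2b4-208, is 243 bases at chr1:133701639-133701881 on the minus strand (GRCm38). Its composition is 91.4% A or G, a higher share than in 99.99% of 141767 annotated transcripts, and it begins with 183 bases of A and G alone. The first 30 bases, at chr1:133701852-133701881, are shown because of that repeat, with the A and G run in capitals; they also lie in an untranslated region of Atp2b4-206.
Atp2b4-208: GAAGAGGAGGAGGAGGAGGAGGAGGAGGAG
No header or label says which transcripts the authors quantified, and the part of this short transcript in the lengths was not tested.

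The share of Atp2b4 in the pair of plasma membrane pumps was lower with coarctation on both scales, and the difference was not tested. Atp2b4 made up 21.1% to 36.7% of the summed TPM of Atp2b1 and Atp2b4 with coarctation and 49.6% to 78.2% in sham. From counts without length scaling the shares were 11.3% to 18.5% and 19.2% to 29.9%. The operations did not overlap on either scale, though without length scaling the nearest shares were 18.5% and 19.2%. On that scale Atp2b4 itself overlapped, at 30.4 to 58.2 CPM with coarctation and 31.6 to 54.1 CPM in sham. Atp2b1 lay at 174.6 to 276.6 CPM and at 79.5 to 175.9 CPM. How many other pairs of genes separate in this way was not examined. The summed TPM of the pair was 26.1 to 45.4 with coarctation and 39.3 to 43.2 in sham.

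**Figure D4:**
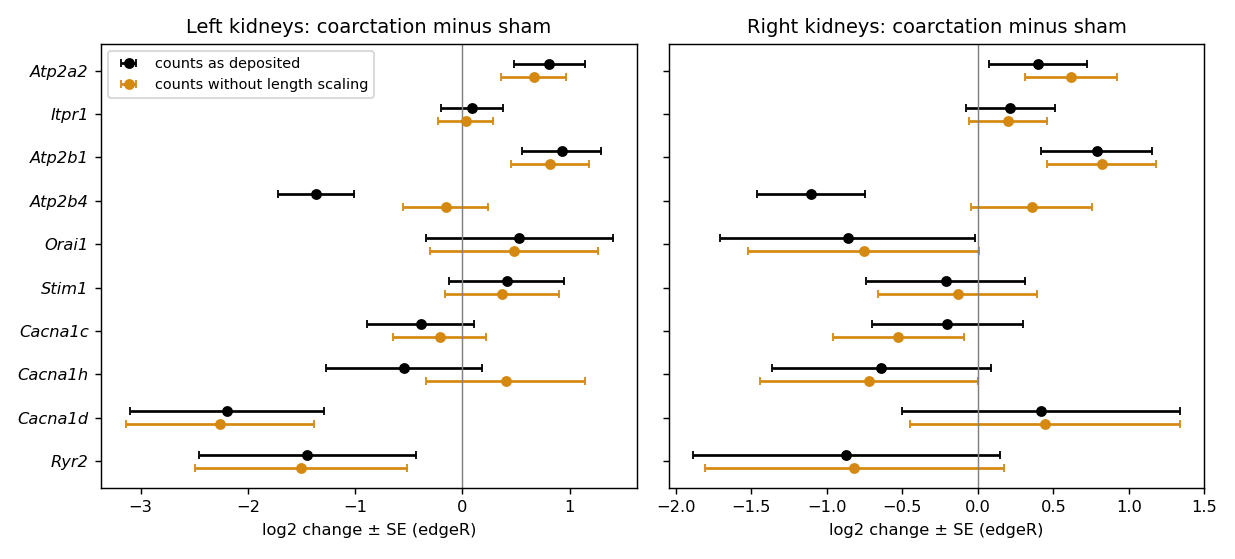
Log2 difference between coarctation and sham (edgeR estimate ± SE) for each gene in left and right kidneys, from the deposited counts (black) and from counts without length scaling (orange). Atp2b4 moves from -1.37 to -0.16 on the left and from -1.11 to 0.36 on the right, and Cacna1h on the left also changes sign, whereas Atp2b1 stays above 0.

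Counts over the 10 genes were read against those of all tested genes. Right TPM was above left in 3 of 3 coarctation mice for Cacna1d and Atp2b1, a pattern of 20.8% of tested genes. In sham, right was above left in 2 of 2 mice for Orai1, Atp2a2 and Atp2b1, against 26.9% of tested genes. It was below left for Cacna1d, Itpr1, Ryr2 and Atp2b4, against 22.3%. In left kidneys every coarctation library was above every sham library by TPM for Atp2a2 and Atp2b1, against 4.87% of tested genes. They were below for Cacna1c, Cacna1d, Ryr2 and Atp2b4, against 17.2%. In right kidneys the same held upward for Atp2b1, against 5.41%, and downward for Atp2b4, against 11%. Of all tested genes 0.212% were higher in all 6 coarctation libraries than in all 4 sham libraries, and 0 of the 10 were. The median log2 change of the 10 genes was -0.05, -0.15 and 0.02 for right against left after coarctation, in sham and for the difference, beside 0.02 for all tested genes in each. For coarctation against sham the medians were -0.15 on the left and -0.21 on the right, beside -0.02 and -0.05 for all tested genes.

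Other genes of calcium handling were examined as 82 tested genes in 7 lists, and 0 of them passed an adjusted p of 0.05 in any comparison (edgeR). At an unadjusted edgeR p under 0.05, 5 passed for right against left after coarctation, 1 in sham and 3 for the difference. For coarctation against sham, 7 passed on the left and 2 on the right. The shares of all tested genes were 4.63%, 1.94%, 3.05%, 4.75% and 3.82% in the same order. Pln encodes phospholamban, which inhibits the Serca pump. It lay between 146.8 and 237.9 TPM in coarctation libraries and between 78.2 and 117.3 TPM in sham libraries, with no overlap. Of all tested genes 0.212% were higher in every coarctation library in this way, and Pln was the only 1 of the 82. Its log2 difference was 1.18 ± 0.38 on the left (edgeR adjusted p = 0.912) and 0.90 ± 0.38 on the right (edgeR adjusted p = 0.995). Calr, the store calcium buffer calreticulin, measured 66.9 to 99.6 TPM in left and 37.3 to 41.5 TPM in right kidneys with coarctation, a log2 change of -1.20 ± 0.29 (edgeR adjusted p = 0.727). In sham kidneys Calr lay between 57.8 and 67.2 TPM on both sides.

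Genes with profiles most like the 3 most abundant of the 10 were ranked by the root mean square difference of log2(TPM + 1) over the 10 libraries, each gene centred on its mean, among 6712 genes. For Atp2a2 these were Rabggtb with 0.142, Itga8 with 0.145 and Vti1a with 0.154, where the median gene differed by 0.502. For Itpr1 they were Actr1a with 0.125, Brd9 with 0.151 and Nckap1 with 0.162, beside a median of 0.471. For Atp2b1 they were Smu1 with 0.148, Lamtor3 with 0.182 and Mapre2 with 0.184, beside a median of 0.597.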

How the data were processed

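RNA was amplified with SMART-Seq v4 and sequenced, per the labels' protocols, and FastQC and the builds GRCm38 and mm10 are named in the submitters' processing notes. No header or label names the aligner, the quantifier or the gene annotation. Per the file headers, the authors deposited TPM, estimated counts made from TPM scaled by average transcript length and library size, and the average transcript length itself, for each gene and library. Libraries held 20029817 to 32006229 estimated counts.

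Estimated counts were rounded, filtered (filterByExpr), normalised by TMM and fitted with edgeR 4.0.16 (glmQLFit and glmQLFTest, R 4.3.3) in one model of the 4 groups with 6 residual degrees of freedom. Adjusted p-values are Benjamini-Hochberg over 18825 genes, with a threshold of 0.05. The design text calls the mice biological replicates. The numbers in the labels tie both kidneys to 1 mouse, and deviations from the group means of log2 (CPM + 0.5) correlated within a mouse at 0.16, 0.07 and 0.04 after coarctation and 0.41 in sham, where 2 libraries a group fix that the mice mirror each other. Alternatives were a mouse block, DESeq2 1.42.0, limma-voom (limma 3.58.1), RLE factors, no filter, only the groups compared, and leaving out each library or mouse. Counts without length scaling, and leaving out each mouse together with the block, were added after seeing the data. Positions and transcripts came from GENCODE M21 (GRCm38).

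The 10 genes and the gene lists were chosen with earlier results of these data known. All 10 are named, with Ren1, relatives of the same families, the 3 genes most like each of the 3 most abundant (mean TPM of at least 5, predicted genes left out), and, among other calcium genes with a mean TPM of at least 1, the 4 with the smallest p-values in each comparison. Exons of Cacna1d, Cacna1h, Orai1, Itpr1, Atp2a2, Atp2b4 and Pln overlap those of other annotated genes, and whether counting used strand is not given, so such reads cannot be told apart.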

Additional observations from a re-analysis of the deposited data

Results flagged for a closer look

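By TPM, the right minus left change had one direction in all 3 coarctation mice and the opposite one in both sham mice for 1 of the 10 genes and for 5 of the 82 other calcium genes, beside 6.26% of all tested genes. Among the genes named by rule these were Cacna1d, Casq2 and Slc24a3, each higher on the right after coarctation. Cacna1s and Hrc, with the same directions, and Nfatc4, with the reverse, fall outside the naming rule and are named after their values were seen. In sham mice 1 and 2 the log2 TPM ratios of right to left were -0.42 and -3.07 for Cacna1s. Those of Hrc were near 0, at -0.01 and -0.05. From counts without length scaling, not adjusted for library size, they were 0.39 and -0.17 for Cacna1s and -0.09 and 0.08 for Hrc. Nfatc4 kept its directions on that scale. The right minus left change differed between the operations by 2.61 ± 1.31 on the log2 scale for Cacna1d, by 5.91 ± 1.57 for Casq2, the store calcium buffer calsequestrin 2, and by 1.34 ± 0.80 for Slc24a3, a sodium, potassium and calcium exchanger (edgeR, all 3 with an adjusted p of 1). Casq2 measured 0.631, 0.741 and 0.0700 TPM on the left and 1.54, 2.28 and 8.52 TPM on the right after coarctation, and 6.06 and 0.979 TPM on the left and 0.50 and 0.381 TPM on the right in sham. Its value in the left kidney of coarctation mouse 3 rested on 5 estimated counts at an average length of 388 bases. The right kidney of sham mouse 1 had 26 estimated counts at 777 bases, against 1956 to 2365 bases in the other libraries. Slc24a3 measured 1.53, 2.32 and 1.56 TPM on the left and 2.50, 2.72 and 2.10 TPM on the right after coarctation, and 1.98 and 2.60 TPM on the left and 1.40 and 0.925 TPM on the right in sham. In coarctation mouse 1 the log2 ratio of right to left for Slc24a3 was 0.70 from TPM. From counts without length scaling, not adjusted for library size, it was -1.26, though the right library was the deeper (27168627 against 23972981 estimated counts). The shared direction of Slc24a3 after coarctation therefore held on the TPM scale only. Cacna1d and Casq2 kept the directions in all 5 mice on both scales.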

How the results depend on the processing

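None of 1250 log2 changes of the 10 genes, over 28 alternative settings, passed an adjusted p of 0.05 (edgeR, DESeq2 or limma-voom), and the smallest was 0.138, for Atp2b4 in left kidneys with DESeq2. The sign differed from the reported one in 99 of the 1250, in 89 by less than 1 SE.

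For right against left after coarctation, the genes past the threshold, 0 as reported, were 5 with the replicate block of mouse, 76 with DESeq2, 112 without the filter, 6 without length scaling in the paired fit, and 0 to 7 when a library or mouse was left out (3 without the right kidney of coarctation mouse 3, 4 without that mouse, and 7 without sham mouse 2 in the paired fit). DESeq2 and no filter gave 28 and 19 in sham, 34 and 63 for the difference, 39 and 67 on the left, and 57 and 70 on the right. Leaving out gave 0 to 2 for the difference and 0 to 3 on the right, and the values above 0 all came without coarctation mouse 3 or its right kidney. The replicate block changed no call of the 10 genes. It could not be fitted for coarctation against sham within a side, where each mouse gives 1 library.

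Without length scaling, a setting chosen after seeing the data that moved the median of all genes to 0.15 for right against left after coarctation and to 0.13 for the difference, these log2 changes changed sign: after coarctation, Orai1 0.041, Itpr1 0.085 (0.080 with the block) and Atp2a2 0.022; in sham, Cacna1c 0.125 (0.153 with the block); for the difference, Cacna1c -0.316 (-0.358 with the block) and Atp2b1 0.003; on the left, Cacna1h 0.402; on the right, Atp2b4 0.357. With limma-voom Cacna1h after coarctation was 0.003. The cause was not tested beyond the scaling itself.

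Leaving out a library or mouse, with or without the block, gave these ranges where a sign changed. After coarctation, right minus left: Cacna1c -0.456 to 0.390, Cacna1h -0.424 to 0.584, Orai1 -1.383 to 0.588, Itpr1 -0.341 to 0.154, Ryr2 -0.195 to 0.511, Atp2a2 -0.338 to 0.162 and Atp2b4 -0.117 to 0.566. In sham: Cacna1c -0.531 to 0.052, Cacna1h -0.582 to 1.15, Stim1 -0.555 to 0.463, Ryr2 -2.392 to 0.582 and Atp2b1 -0.067 to 1.13. For the difference: Cacna1c -0.206 to 0.630, Cacna1h -1.204 to 0.528, Itpr1 -0.143 to 0.344, Ryr2 -0.468 to 2.507 and Atp2b1 -0.854 to 0.342. On the left: Cacna1h -1.145 to 0.586, Orai1 -0.024 to 1.474 and Itpr1 -0.094 to 0.203. On the right: Cacna1c -0.598 to 0.170, Cacna1d -0.186 to 1.602, Stim1 -0.636 to 0.188 and Ryr2 -1.630 to 1.078. Where a group keeps 1 library, that library is assumed to vary like the other groups. Ryr2 and Cacna1d rest on few counts, which limits what depth can show for them.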

Other observations

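Rcan1, a calcineurin regulator, measured 11.5, 2.98 and 17.2 TPM in left kidneys with coarctation and 4.21 to 6.11 TPM in right kidneys with coarctation. In the 4 sham libraries it lay between 4.18 and 5.55 TPM. Coarctation mice 1 and 3 had the high left values, and mouse 2 was below all sham libraries. The log2 change from left to right after coarctation was -1.28 ± 0.57 (edgeR adjusted p = 1).

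Pde1a, a calcium and calmodulin dependent phosphodiesterase, was higher on the right in 3 of 3 coarctation mice and 2 of 2 sham mice. Of all tested genes 20.8% had the first pattern and 26.9% the second. The log2 changes were 0.51 ± 0.27 and 0.70 ± 0.33, neither past the threshold (edgeR adjusted p = 1 in both). Ppp3cb, a catalytic subunit of calcineurin, differed by -0.73 ± 0.50 between right and left in sham, and Cacna1a, the pore of the P/Q-type channel, by -1.92 ± 1.01 between coarctation and sham in right kidneys, neither past the threshold (edgeR adjusted p = 1 and 0.995). For Ppp3cb, sham mice 1 and 2 went in opposite directions, with log2 TPM ratios of -1.80 and 0.42. The ratios of counts without length scaling, not adjusted for library size, were 0.19 and -0.18. The left kidney of sham mouse 1 measured 58.6 TPM at an average length of 464 bases, against 1346 to 2667 bases in the other libraries.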
